A study of Mus musculus with 2 samples.

Results

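The enzymes of glycolysis, of the pyruvate dehydrogenase complex and tricarboxylic acid (TCA) cycle, and of the pentose phosphate pathway were followed in brain mononuclear cells that lack CD47, a membrane protein whose receptor on microglia is SIRPα. Members were chosen by gene name, with earlier results of these data known. Signals set which probe set stands for a gene and whether it passes a threshold. The list holds 35 genes, of which 18 belong to glycolysis, 13 to pyruvate dehydrogenase and the TCA cycle and 4 to the pentose phosphate pathway. Of these, 32 had a probe set that carries their symbol alone and are described here. The other 3, which are 2 glycolysis genes and 1 pentose phosphate gene, are not analysed here. The arrays name 18194 genes in all.

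RNA came from CD47 KO mice (6 male animals, 12 to 16 wks of age) and from wild-type (WT) mice (7 male animals, 10 to 15 wks of age). It was pooled by genotype, so that each genotype is represented by 1 array and no error between animals, p-value or test between genotypes can be given. The cells were taken from digested whole brain at a Percoll interface, where microglia collect together with other cells of like density. The CD47 KO mice carry the null genotype Cd47-/- in the whole animal, and the sources used here do not give the strain background of these mice.

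*Cd47* itself had a signal of 1688 in CD47 KO cells, against 5816 in WT cells, a Log2 ratio (CD47 KO/WT) of -1.79, and its 5 expressed probe sets lay between -1.86 and -1.45. *Xist*, the RNA of the inactive X chromosome, was bright in both pools, with 6530 in CD47 KO cells and 7070 in WT cells, although the labels give male animals for both. Of the Y-linked genes, *Eif2s3y* had 461 in CD47 KO cells and 189 in WT cells (1.29, and -0.18 on its other expressed probe set) and *Kdm5d* had 307 in CD47 KO cells and 162 in WT cells (0.92). The part of sex in the values below was not tested. A probe set, a group of short probes against 1 transcript, was called expressed at or above the median signal of an array (146 for CD47 KO, 161 for WT) in at least 1 genotype, and a gene takes the value of its brightest probe set. Markers were counted where a probe set carries their symbol alone. The preparation held microglia, for which 13 of 13 such markers were expressed. It held other cells too, with 13 of 13 neuronal markers, 8 of 10 astrocyte markers and 11 of 11 endothelial markers expressed. Hybridization controls, RNA added in known amounts, had Log2 ratios between -0.07 and 0.15 over 18 probe sets. The only error that the arrays hold is the spread between probe sets of the same gene, which also contains splice forms and probe effects. As an SD of the Log2 ratio it was 0.82, 0.57, 0.46 and 0.32 from the dimmest to the brightest 25% of expressed probe sets.

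Glycolysis splits glucose into pyruvate in the cytosol, first spending ATP and then regaining more of it, and lactate dehydrogenase reduces pyruvate to lactate when NAD+ is needed. The pyruvate dehydrogenase complex carries pyruvate into the mitochondrial TCA cycle as acetyl-CoA, and the cycle supplies reducing power to the respiratory chain. The pentose phosphate pathway yields NADPH and ribose. Microglia are known to move towards glycolysis and the pentose phosphate pathway on inflammatory activation. Transcript levels of these enzymes do not measure flux, which also depends on protein, allostery and substrate.

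The transcripts of central carbon metabolism were bright and differed little between CD47 KO and WT cells. All 32 genes were expressed, and 30 of them reached the 75th percentile of an array (532 for CD47 KO, 541 for WT). The exceptions were *Hk3* and *Pfkl*. No member passed 2-fold in either direction, where 3.53% of all expressed genes passed it upwards and 5.41% downwards. Of the 6918 genes as bright as the 75th percentile, 95 passed 2-fold upwards and 143 downwards. Only *Pfkm* passed 1.5-fold, and it was higher in CD47 KO cells. Among all 11683 expressed genes 10.1% were past 1.5-fold higher and 13.6% past 1.5-fold lower, and among the 6918 genes as bright as the 75th percentile these shares were 6.3% and 7.82%. The median size of the Log2 ratio, without its sign, was 0.14 over the members, against 0.22 over the bright genes and 0.29 over all expressed genes. The spread between probe sets falls with brightness, and genes matched more closely to the members in signal were not compared. The part of brightness in the small differences was not tested.

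In direction the members were divided. Higher signals in CD47 KO cells were found for 15 of the 32 (46.9%), where 50.3% of all expressed genes were higher. Of the 30 bright members 13 were higher (43.3%), where 53.7% of bright genes were. The median Log2 ratio of the 32 members was -0.0027, against 0.0033 over all expressed genes and 0.03 over the bright ones. By pathway it was 0.06 over 16 glycolysis genes (11 higher), -0.06 over 13 pyruvate dehydrogenase and TCA cycle genes (2 higher) and 0.20 over 3 pentose phosphate genes (2 higher). The pentose phosphate median turned to -0.018 without probe sets of the _x_at and _s_at types and to -0.15 on second brightest probe sets. With quantile normalization the glycolysis median was -0.0066, and 7 of the 16 genes were higher. Of the 32 members, 13 lay within 0.1 of a Log2 ratio of 0, and only *Pfkm* and *Slc2a3* differed by more than 1 SD between probe sets of their brightness. Neither count was taken over all expressed genes, so both only describe the members.

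**Figure D1:**
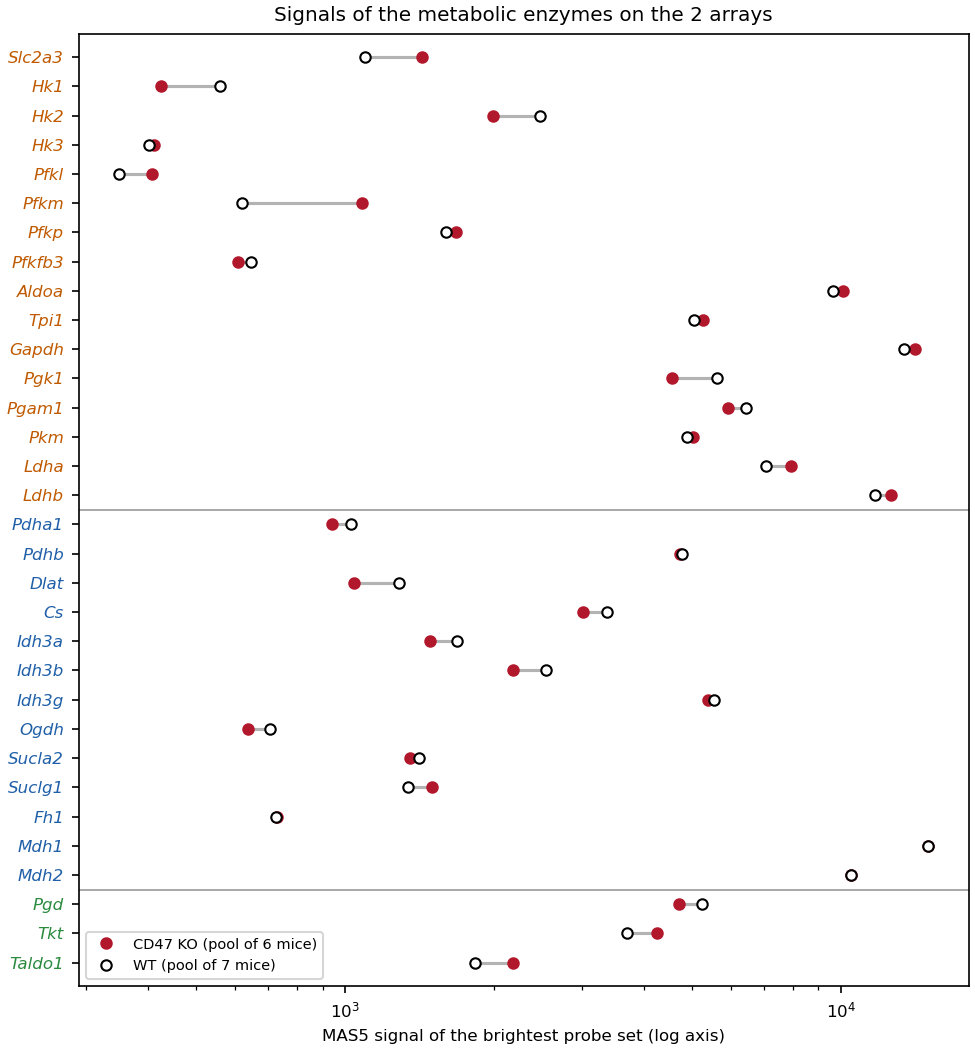
MAS5 signal (log axis) of the brightest probe set of each of the 32 analysed enzymes in CD47 KO cells (filled) and WT cells (open), 1 array per genotype, with glycolysis, pyruvate dehydrogenase with the TCA cycle, and the pentose phosphate pathway in blocks from top to bottom. The filled and open points nearly meet for most genes, and the widest gap is that of *Pfkm*, at 1082 in CD47 KO cells and 620 in WT cells.

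Glucose entry and its first phosphorylation were mixed. *Slc2a3*, which encodes the high-affinity glucose transporter GLUT3, had signals of 1431 in CD47 KO cells and 1094 in WT cells, a Log2 ratio of 0.39. Its other 3 expressed probe sets gave 0.46, 0.46 and 0.18, so that all 4 were higher in CD47 KO cells. The hexokinases trap glucose in the cell as glucose 6-phosphate. *Hk2*, the inducible hexokinase bound to mitochondria, had 1989 in CD47 KO cells and 2472 in WT cells, a Log2 ratio of -0.31 on its single expressed probe set. *Hk1*, the widespread form, had 426 in CD47 KO cells and 559 in WT cells (-0.39), while its dimmer probe set had 356 and 217 in the same order (0.72). The 2 probe sets of *Hk1* thus point in opposite directions. *Hk3*, the hexokinase of myeloid cells, had 412 in CD47 KO cells and 402 in WT cells, with Log2 ratios of 0.04 and 0.03 on its probe sets.

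The genes of the preparatory phase included the largest difference among all members. Phosphofructokinase commits sugar to glycolysis and works as a tetramer of muscle, liver and platelet type subunits. *Pfkm*, the muscle type subunit, had a signal of 1082 in CD47 KO cells and 620 in WT cells. This is a Log2 ratio of 0.80, or 74.6% higher, where the SD between probe sets of like brightness was 0.46. *Pfkm* was read by 1 probe set, so the arrays hold no second reading of it. The other subunits did not differ to this extent. *Pfkl*, the liver type, had 408 in CD47 KO cells and 350 in WT cells (0.22), with 0.04 and -0.54 on its other expressed probe sets. *Pfkp*, the platelet type, was the brightest of these probe sets with 1670 in CD47 KO cells and 1596 in WT cells (0.07), and its other probe sets gave -0.32 and 0.24. The *Pfkl* probe set at -0.54 (113 in CD47 KO cells, 165 in WT cells) reached the median in WT cells only. It could thus not have come out higher. The probe sets of *Pfkp* had both signs, a check that *Pfkm* does not allow. *Pfkfb3*, whose product makes the allosteric activator fructose 2,6-bisphosphate, had 608 in CD47 KO cells and 645 in WT cells (-0.09), and -0.51 on its dimmer probe set.

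The remaining preparatory enzymes had nearly the same signal in both genotypes. *Aldoa*, which encodes the aldolase that cleaves fructose 1,6-bisphosphate, had 10110 in CD47 KO cells and 9644 in WT cells (0.07). Its other 4 expressed probe sets lay between -0.03 and 0.09. *Tpi1*, which encodes triosephosphate isomerase, had 5262 in CD47 KO cells and 5051 in WT cells (0.06), with 0.02 and 0.06 on the others. The signs of both genes depended on the scaling of the arrays.

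In the payoff phase, where ATP and NADH are formed, *Pgk1* was lower on each of its probe sets. It encodes phosphoglycerate kinase, the first enzyme of glycolysis to make ATP. *Pgk1* had 4576 in CD47 KO cells and 5633 in WT cells, a Log2 ratio of -0.30, and its other probe sets gave -0.12 and -0.27. *Pgam1*, which encodes the phosphoglycerate mutase that follows, had 5918 in CD47 KO cells and 6443 in WT cells (-0.12). *Pkm*, which encodes the pyruvate kinase of most tissues, had 5046 in CD47 KO cells and 4904 in WT cells (0.04), a difference whose sign depended on the scaling.

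*Gapdh*, which encodes glyceraldehyde 3-phosphate dehydrogenase and often serves as a reference transcript, was nearly equal on the arrays. It was read here only by the array's control probe sets, which cover the 3′ end, the middle and the 5′ end of the transcript. The 3′ probe set had 14108 in CD47 KO cells and 13397 in WT cells (0.07), the middle one 7914 in CD47 KO cells and 7497 in WT cells (0.08), and the 5′ one 6545 in CD47 KO cells and 6489 in WT cells (0.01). All 3 were higher in CD47 KO cells as deposited, but the sign of the brightest turned under quantile or loess scaling. The ratio of the 3′ to the 5′ signal, a measure of RNA integrity and of amplification from the 3′ end, was 2.16 in CD47 KO cells and 2.06 in WT cells.

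Lactate dehydrogenase transcripts were slightly higher in CD47 KO cells. *Ldha*, the subunit favoured in glycolytic cells, had 7944 in CD47 KO cells and 7076 in WT cells, a Log2 ratio of 0.17 on 1 expressed probe set. *Ldhb*, the heart type subunit, had 12639 in CD47 KO cells and 11746 in WT cells (0.11), with 0.04, 0.06 and -0.03 on its other probe sets. Both kept their sign under every scaling, and both differences were smaller than the SD between probe sets of 0.32.

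**Figure D2:**
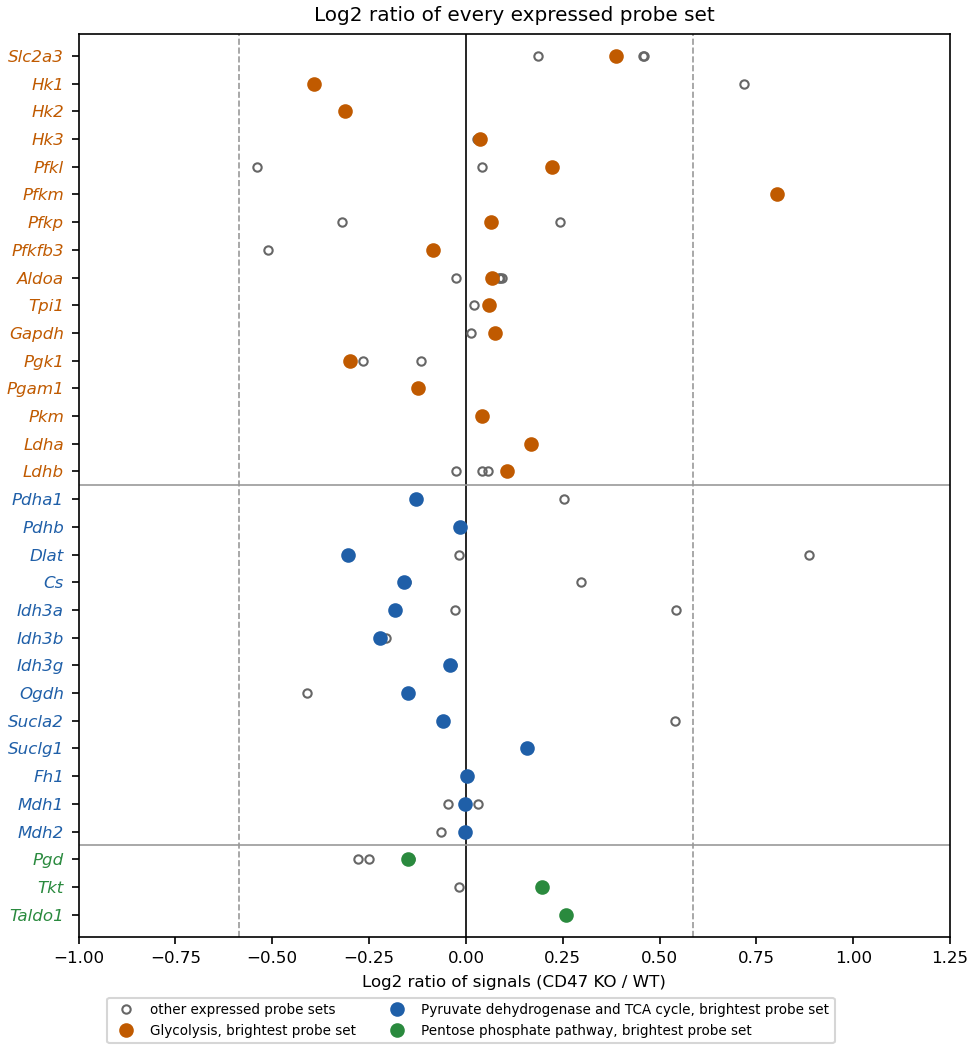
Log2 ratio of the CD47 KO over the WT signal for every expressed probe set of the 32 enzymes, with the brightest probe set of each gene filled and the others open, and dashed lines at 1.5-fold. All 4 *Slc2a3* probe sets and all 3 *Pgk1* probe sets lie on 1 side of 0, whereas those of *Hk1*, *Dlat* and *Idh3a* lie on both.

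Transcripts of the pyruvate dehydrogenase complex and the TCA cycle were lower in CD47 KO cells for 11 of 13 genes, by small amounts. The median Log2 ratio was -0.06, the lowest value -0.30 and the highest 0.16. The same 11 genes were lower under each of the 4 other scalings, where the median lay between -0.11 and -0.07. Both centrings lowered every ratio, so a gene lower as deposited could not turn under them. Quantile and loess scaling also lowered the ratios of most of the 13 genes. The count rested on the choice of probe set. With the expressed probe sets of each gene averaged, 7 of 13 were lower, with a median of -0.0055. On second brightest probe sets 6 of 10 were lower. In both counts *Sucla2* was higher through a probe set that reached the median in CD47 KO cells only and could not have come out lower. The summed signal of the 13 genes was 48472 in CD47 KO cells and 49940 in WT cells, a difference of -2.94%. None of the 13 passed 1.5-fold and none differed by more than 1 SD between probe sets.

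The complex that feeds the cycle had 3 members on the list. *Dlat*, which encodes its acetyltransferase core, had 1042 in CD47 KO cells and 1286 in WT cells (-0.30). Its dimmer probe sets gave -0.02 and 0.89, so the lower value was not repeated within the gene. *Pdha1*, the catalytic α subunit that is controlled by phosphorylation, had 941 in CD47 KO cells and 1029 in WT cells (-0.13), and 0.25 on its other probe set. *Pdhb*, the β subunit, had 4745 in CD47 KO cells and 4792 in WT cells (-0.01).

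The enzymes of entry into the cycle and of its first oxidations were lower in CD47 KO cells on the brightest probe set. *Cs*, which encodes citrate synthase, had 3019 in CD47 KO cells and 3372 in WT cells (-0.16), with -0.16 and 0.30 on the others. The NAD-dependent isocitrate dehydrogenase is built from 3 kinds of subunit. *Idh3a*, its catalytic subunit, had 1483 in CD47 KO cells and 1684 in WT cells (-0.18), with 0.54 and -0.03 on the others. *Idh3b* had 2179 in CD47 KO cells and 2541 in WT cells (-0.22), with -0.21 on its other probe set. *Idh3g* had 5390 in CD47 KO cells and 5545 in WT cells (-0.04), with -0.04 on the other. The 2 probe sets of *Idh3b* and those of *Idh3g* thus gave nearly the same value within each gene. *Ogdh*, which encodes the E1 subunit of the 2-oxoglutarate dehydrogenase complex, had 636 in CD47 KO cells and 705 in WT cells (-0.15), and -0.41 on its other probe set.

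The later steps of the cycle had both signs. *Sucla2*, the ATP-forming β subunit of succinyl-CoA ligase, had 1351 in CD47 KO cells and 1408 in WT cells (-0.06). Its other expressed probe set gave 0.54 (152 in CD47 KO cells, 104 in WT cells). That probe set reached the median in CD47 KO cells only, so it could not have come out lower. A further *Sucla2* probe set, not expressed, gave -1.44. *Suclg1*, the α subunit of the same enzyme, had 1494 in CD47 KO cells and 1339 in WT cells (0.16) and was the only gene of the group that was higher under every scaling. *Fh1*, which encodes fumarase, had 727 in CD47 KO cells and 725 in WT cells (0.0038). The malate dehydrogenases, which also serve the malate-aspartate shuttle, were among the brightest members and the closest to equality. *Mdh1*, the cytosolic form, had 14993 in CD47 KO cells and 15024 in WT cells (-0.0029), with 0.03 and -0.05 on the others. *Mdh2*, the mitochondrial form, had 10474 in CD47 KO cells and 10492 in WT cells (-0.0025), with -0.07 on the other. The malate dehydrogenases thus had nearly the same signal in both pools.

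Of the pentose phosphate members, 1 was lower and 2 were higher in CD47 KO cells. *Pgd*, which encodes the 6-phosphogluconate dehydrogenase of the oxidative, NADPH-forming branch, had 4726 in CD47 KO cells and 5239 in WT cells, a Log2 ratio of -0.15. Its other 3 probe sets gave -0.28, -0.25 and -0.15, all lower in CD47 KO cells. The non-oxidative branch exchanges carbon between ribose 5-phosphate and glycolytic sugars. *Taldo1*, which encodes transaldolase, had 2180 in CD47 KO cells and 1824 in WT cells (0.26) on 1 expressed probe set. *Tkt*, which encodes transketolase, had 4251 in CD47 KO cells and 3709 in WT cells (0.20), and -0.02 on its dimmer probe set. None of these differences reached the SD of 0.32 between probe sets of their brightness.

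Over all members, 23 had at least 2 expressed probe sets. In 11 of them every expressed probe set had the same sign, which was higher for 4 and lower for 7, and in 12 the signs differed. For *Pfkl* and *Sucla2* the differing sign came from a probe set that reached the median in 1 genotype only, which fixed its sign. How often signs match within other genes was not counted, so these numbers only describe the members. The other 9 members had 1 expressed probe set. Under every scaling tried, 10 members stayed higher in CD47 KO cells and 17 lower. The brightest probe sets of *Aldoa*, *Tpi1*, *Gapdh*, *Pkm* and *Fh1*, all higher as deposited, changed sign. Both centrings lowered every ratio, so a member lower as deposited could not turn under them.

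**Figure D3:**
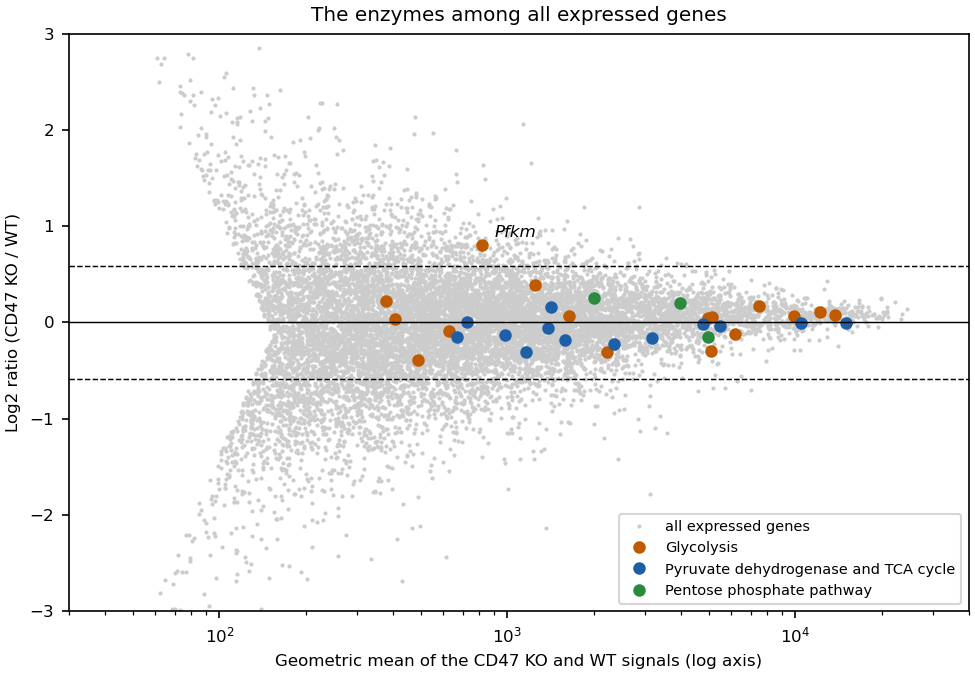
Log2 ratio of the CD47 KO over the WT signal against the geometric mean of both signals (log axis) for all expressed genes (grey) and for the 32 enzymes (coloured by pathway), with dashed lines at 1.5-fold and 37 genes beyond the plotted Log2 range of 3 not drawn. The enzymes lie towards the bright end and within the dashed lines, except *Pfkm* at 0.80.

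Genes of the same pathways that are not on the list were taken from 8 further lists with 123 genes. Of 20 expressed other glycolysis genes, 10 were higher in CD47 KO cells, 5 of them past 1.5-fold, and 4 were past 1.5-fold lower, with a median of -0.01. Over all expressed genes these shares were 10.1% and 13.6%. *Pgam2*, *Eno3*, *Gapdhs* and *Pfkfb4* passed the signal threshold in CD47 KO cells only, so they could not have come out past 1.5-fold lower. The 5 genes past 1.5-fold higher thus rest in part on the threshold. *Pfkfb2*, also past 1.5-fold higher, passed it in both genotypes, with 1013 in CD47 KO cells and 582 in WT cells (0.80). Its other expressed probe sets gave -0.12, -0.86 and -0.90, the last of which passed in WT cells only. *Gapdhs* had 159 in CD47 KO cells and 96.9 in WT cells (0.71), and *Pfkfb4* had 209 in CD47 KO cells and 132 in WT cells (0.66). The size of the *Pgam2* and *Eno3* ratios rests on WT signals near the 25th percentile. *Pgam2*, the muscle phosphoglycerate mutase, had 221 in CD47 KO cells and 44.0 in WT cells, a Log2 ratio of 2.33. *Eno3*, the muscle enolase, had 153 in CD47 KO cells and 47.6 in WT cells (1.68). With the 25th percentile of the arrays added to both signals these were 1.64 and 1.15. *Adpgk*, an ADP-dependent glucokinase, had 222 in CD47 KO cells and 438 in WT cells (-0.98), but -0.04 on its other probe set, and *Ldhd*, which encodes D-lactate dehydrogenase, had 243 in CD47 KO cells and 471 in WT cells (-0.95).

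The brain isoenzymes of the members did not pass 1.5-fold. *Aldoc*, the aldolase of astrocytes and some neurons, had 5270 in CD47 KO cells and 4257 in WT cells (0.31), with 0.19 on its other probe set. *Eno2*, the neuronal enolase, had 3250 in CD47 KO cells and 3801 in WT cells (-0.23). These genes, which mark other brain cells, had opposite signs. *Slc2a1*, which encodes GLUT1, had 7060 in CD47 KO cells and 7576 in WT cells (-0.10), with 0.14 and 0.02 on its other probe sets. *Slc2a5*, which encodes the fructose transporter GLUT5 that microglia express, had 2647 in CD47 KO cells and 2333 in WT cells (0.18).

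The regulators and further subunits of pyruvate dehydrogenase had 4 of 8 expressed genes higher and a median of 0.01. *Pdk4*, a kinase that inactivates the complex, had 145 in CD47 KO cells and 336 in WT cells (-1.21), and *Pdp2*, a phosphatase that activates it, had 141 in CD47 KO cells and 273 in WT cells (-0.95). Both reached the median in WT cells only, so they could not have come out higher, and they act in opposite directions on the complex. Other TCA cycle and anaplerosis genes had 7 of 16 higher and a median of -0.03. *Pcx*, the pyruvate carboxylase that refills oxaloacetate, had 89.2 in CD47 KO cells and 210 in WT cells (-1.23), with -1.30 on its other expressed probe set. Both passed the threshold in WT cells only, and the 3 *Pcx* probe sets below it gave -0.54, -0.02 and -0.22. *Dlst*, the E2 subunit of the 2-oxoglutarate dehydrogenase complex, had 459 in CD47 KO cells and 747 in WT cells (-0.70), with -0.42 on its other expressed probe set. The shuttles for lactate, pyruvate and NADH had 4 of 12 genes higher, none past 1.5-fold and a median of -0.06.

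The other pentose phosphate genes had the highest median of the 8 lists, 0.32 over 7 expressed genes. Of these, 5 were higher in CD47 KO cells and none passed 1.5-fold. The following genes were chosen after their values were seen. *Rpia*, which interconverts ribulose and ribose 5-phosphate, had 1521 in CD47 KO cells and 1175 in WT cells (0.37). *Rpe*, the epimerase of the same substrate, had 953 in CD47 KO cells and 693 in WT cells (0.46). *Pgls*, the lactonase of the oxidative branch, had 1812 in CD47 KO cells and 1447 in WT cells (0.32). *Prps2*, which activates ribose for nucleotide synthesis, had 2505 in CD47 KO cells and 1759 in WT cells (0.51), with 0.29 and 0.22 on its other probe sets. On the same list *Rbks*, a ribokinase gene, had 535 in CD47 KO cells and 801 in WT cells (-0.58, and 0.13 on its other probe set), and *Prps1*, the relative of *Prps2*, had 959 in CD47 KO cells and 960.4 in WT cells (-0.0015). *Pgd*, as given above, was lower on all 4 of its probe sets.

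Regulators that act on these enzymes were, on the median, not far from 0. HIF-1, the oxygen-regulated transcription factor, induces most glycolytic enzymes. Its listed subunits, regulators and other targets had 7 of 16 genes higher and a median of -0.13. *Hif1a*, the α subunit of HIF-1, had 1925 in CD47 KO cells and 1707 in WT cells (0.17), with -0.06, 0.44 and 0.14 on its other probe sets. The 2 of these 16 genes past 1.5-fold, *Arnt* and *Car9*, were both lower, where 13.6% of all expressed genes were past 1.5-fold lower. *Arnt*, the β subunit of HIF-1, had 560 in CD47 KO cells and 956 in WT cells (-0.77), while its other probe sets gave -0.30, 0.00 and -0.37. *Car9*, the carbonic anhydrase induced in hypoxia, had 66.4 in CD47 KO cells and 242 in WT cells (-1.86) and reached the median in WT cells only. NRF2, which induces oxidative pentose phosphate enzymes and antioxidant genes, had 3 of 10 genes of its list higher and a median of -0.13. Only the 2 of these 10 genes past 1.5-fold, both lower, are named here, beside the same share of 13.6% over all expressed genes. *Nqo1*, a quinone reductase and target of NRF2, had 718 in CD47 KO cells and 1080 in WT cells (-0.59), and *Slc7a11*, the cystine transporter, had 237 in CD47 KO cells and 357 in WT cells (-0.59).

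The list of other regulators had 9 of 14 genes higher, with a median of 0.04. Of the 14, 3 genes were past 1.5-fold lower, where 13.6% of all expressed genes were. *Myc*, a transcription factor that induces glycolytic genes, had 585 in CD47 KO cells and 962 in WT cells (-0.72). *Mlxipl*, which encodes the carbohydrate response factor ChREBP, had 174 in CD47 KO cells and 452 in WT cells (-1.37). *Prkaa2*, a catalytic subunit of the energy sensor AMPK, had 167 in CD47 KO cells and 280 in WT cells (-0.75). Its other expressed probe set gave 1.52, but reached the median in CD47 KO cells only, so it could not have come out lower.

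The core of the HIF-1 binding motif, ACGTG, was searched on both strands of the promoter windows of the members, from 250 bases before to 50 after each start (RefSeq, GRCm38.p6). A window of 300 bases was held for 30 of the 32 members, with 45 windows in all. A gene counted if any of its windows had a match. All 27025 mouse genes with a window had 32851 windows, and the number of windows per gene was not matched. By window, ACGTG was present in 51.1% of the members' windows and in 19.6% of all windows. The motif was present for 11 of 15 glycolysis genes (73.3%), 4 of 12 pyruvate dehydrogenase and TCA cycle genes (33.3%) and 0 of 3 pentose phosphate genes, against 21.8% of 27025 mouse genes with a window. Members with and without it had median Log2 ratios of -0.01 and 0.0038, which mix the pathways. Within glycolysis these medians were 0.04 with and 0.09 without it. Within pyruvate dehydrogenase and the TCA cycle they were -0.03 with and -0.09 without it. *Hk2*, *Ldha* and *Pgk1*, which are known targets of HIF-1, are shown because they carry several matches and had Log2 ratios of both signs. They are printed 5′ to 3′ on the strand of the gene, with the motif (ACGTG, or CACGT where it lies on the other strand) in capitals. The run CACGTG holds both readings and counts as 2 matches. The *Hk2* window on the minus strand (chr6:82774405-82774704) has 2 matches, the *Ldha* window on the plus strand (chr7:46845554-46845853) has 5, and the *Pgk1* window on the plus strand (chrX:106186850-106187149) has 2.
Hk2: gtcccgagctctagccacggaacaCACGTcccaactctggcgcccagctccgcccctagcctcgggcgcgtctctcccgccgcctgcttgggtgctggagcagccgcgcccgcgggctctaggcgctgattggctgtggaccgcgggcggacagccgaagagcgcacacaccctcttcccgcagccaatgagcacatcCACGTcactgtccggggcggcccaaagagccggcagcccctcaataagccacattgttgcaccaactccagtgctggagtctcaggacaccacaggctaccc
Ldha: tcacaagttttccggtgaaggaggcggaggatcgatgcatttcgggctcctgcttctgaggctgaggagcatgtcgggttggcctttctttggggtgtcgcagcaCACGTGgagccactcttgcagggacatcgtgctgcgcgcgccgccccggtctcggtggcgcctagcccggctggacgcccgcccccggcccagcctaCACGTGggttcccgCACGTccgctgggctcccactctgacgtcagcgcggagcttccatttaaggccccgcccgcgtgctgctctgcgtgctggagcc
Pgk1: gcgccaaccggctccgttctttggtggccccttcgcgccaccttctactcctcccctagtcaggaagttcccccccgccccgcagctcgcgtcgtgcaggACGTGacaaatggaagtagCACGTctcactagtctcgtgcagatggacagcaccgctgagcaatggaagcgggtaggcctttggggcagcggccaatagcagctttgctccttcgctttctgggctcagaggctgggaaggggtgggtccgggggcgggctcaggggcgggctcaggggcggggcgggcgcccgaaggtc
The Log2 ratios of these genes were -0.31 for *Hk2*, 0.17 for *Ldha* and -0.30 for *Pgk1*. A second annotated window of *Ldha* has no match. Not shown are a window of *Pfkm* with 3 matches and windows of *Hk1*, *Pfkfb3*, *Pkm* and *Ogdh* with 2. A match describes these letters and does not show that a factor binds.

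Because the arrays hold RNA of a mixed preparation, fewer cells of a type and less RNA per cell cannot be told apart. The markers of several cell types differed between the pools by more than most of the enzymes did. Microglia markers were higher for 13 of 13 expressed genes, with a median of 0.25 and a summed signal of 115918 in CD47 KO cells and 98859 in WT cells. Astrocyte markers were higher for 7 of 8, with a median of 0.30 and a sum of 25096 in CD47 KO cells and 20781 in WT cells. Endothelial markers were higher for 2 of 11, with a median of -0.38 and a sum of 8057 in CD47 KO cells and 9851 in WT cells. Fibroblast and mural markers were higher for 3 of 12, with a median of -0.66 and a sum of 11081 in CD47 KO cells and 16057 in WT cells. Neuronal markers had a median of 0.07 (9 of 13 higher), oligodendrocyte markers 0.02 (6 of 11 higher) and neutrophil markers -0.16 (2 of 7 higher). T cell markers had a median of -0.29 over 5 expressed genes, 2 of them higher, with values between -2.34 and 0.77. None of these markers has a signal of 0. Their part in the values of the enzymes was not tested.

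**Figure D4:**
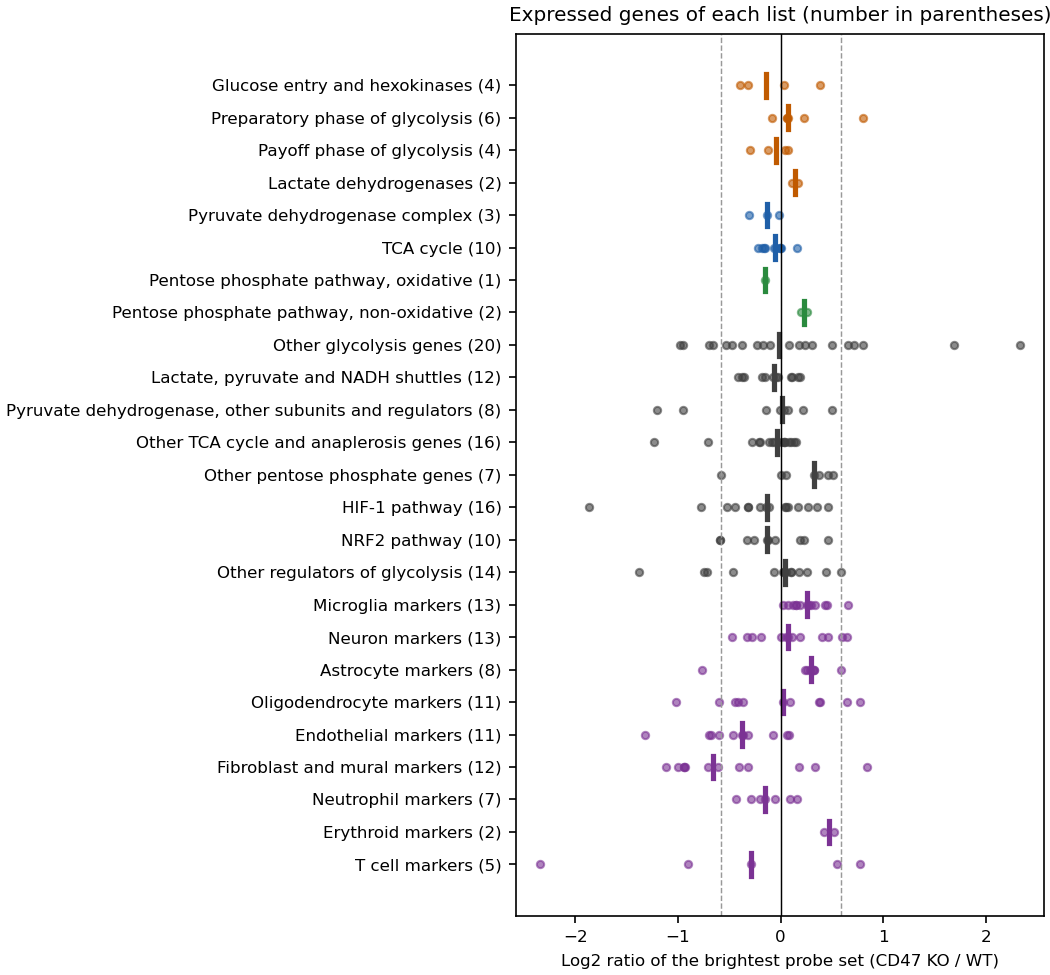
Log2 ratio of the CD47 KO over the WT signal for single expressed genes (points) and the median of their list (vertical bar), with list sizes in parentheses, for the steps of the 3 pathways (coloured), further genes of the same pathways and their regulators (grey) and markers of cell types (purple), with dashed lines at 1.5-fold. The enzyme steps have medians between -0.15 and 0.23, whereas fibroblast and mural markers lie at -0.66 and astrocyte markers at 0.30.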

How the data were processed

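Brain mononuclear cells of CD47 KO and WT mice were measured on the Mouse Genome 430 2.0 array, 1 array per genotype, from pooled RNA (20 ng) that was amplified with the Ovation Pico WTA System V2. For each probe set the authors deposited a MAS5 signal, an intensity on a linear scale, from Expression Console Software (version not given in the sources used here). Both arrays had a mean of 500.002 once 2% of the values at each end were removed, so a common scaling factor per array was applied upstream. With 2 arrays in all, their number sets the precision.

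Log2 ratios of CD47 KO over WT were taken from these signals with no offset. Of 45101 probe sets, 34958 carry exactly 1 symbol in the platform annotation, 932 carry several and 9211 carry none here. Those with several or none were left out, and control probe sets with 1 symbol were kept. Genes were read at the probe set of highest mean signal and counted at 1.5-fold and 2-fold. Every member is named. Of the other pathway lists, the rule takes at most 4 expressed genes past 1.5-fold per list by size, and *Aldoc*, *Eno2*, *Slc2a1* and *Slc2a5* whatever their value. *Bpgm*, *Gapdhs*, *Pfkfb2*, *Pfkfb4*, *Hif1a*, *Pgls*, *Rpia*, *Rpe*, *Prps1*, *Prps2* and *Rbks* were named after their values were seen. The members and lists were chosen with earlier results of these data known.

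The SD between probe sets was taken within genes with 2 or more expressed probe sets. The 12 alternatives changed the signal threshold, the scaling (centring on either of 2 medians, quantile, or loess at fraction 0.4), the offset, the probe set used or the use of control probe sets. Scripts were tested on simulated data. Python 3.11.15, numpy 2.4.6, pandas 2.3.3, statsmodels 0.14.6 and matplotlib 3.10.9 were used.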

Additional observations from a re-analysis of the deposited data

How the results depend on the processing

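With 1 array per genotype, no alternative can leave out a replicate, and no paired analysis was possible because each genotype has 1 pool. Results were recomputed under 12 alternatives, 11 of them planned and 1, without control probe sets, added after seeing the data. Single genes have values under 9 to 12 of them, since some drop out under a stricter threshold or have no second probe set. Between 11 and 18 members were higher in CD47 KO cells, 1 was past 1.5-fold higher under each alternative, and none was past 1.5-fold lower or 2-fold. That 1 gene was *Pfkm* (0.77 to 0.81) wherever it was tested, and *Hk1* (0.72) on the second brightest probe sets, where *Pfkm* has none. The glycolysis median lay between -0.0066 and 0.06. The pyruvate dehydrogenase and TCA cycle median was -0.11 under quantile normalization and -0.0055 with the mean over the expressed probe sets of a gene, and that of all members was -0.063 under quantile and -0.072 under loess normalization. The pentose phosphate median turned to -0.018 without probe sets of the _x_at and _s_at types, which may cross-hybridise, and to -0.15 on the second brightest probe sets. Outside the members, *Rbks* turned to 0.13 under both of these. The SD between probe sets of the brightest 25%, 0.32 as reported, was 0.21 with the threshold at the 75th percentile. The causes were not tested. Of 371 member values, 5 moved by more than the SD between probe sets. On the mean *Dlat* moved to 0.19. On the second brightest probe set *Hk1* moved to 0.72, *Pfkp* to -0.32, *Idh3a* to 0.54 and *Sucla2* to 0.54. That *Sucla2* probe set reached the median in CD47 KO cells only, so it could not have come out lower. Of 32 members, 18 kept their sign under every alternative run for them.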

Other observations

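*Bpgm*, which encodes the bisphosphoglycerate mutase that makes 2,3-bisphosphoglycerate in red cells, was chosen after its values were seen. It had a signal of 6274 in CD47 KO cells and 4442 in WT cells, a Log2 ratio of 0.50, and 0.52 and 0.52 on its other probe sets. All 3 were higher in CD47 KO cells, and the value lay between 0.44 and 0.52 under the alternatives. The erythroid markers had a summed signal of 3002 in CD47 KO cells and 2186 in WT cells over 2 expressed genes, with a median Log2 ratio of 0.47. Of the 7 listed, 3 had a probe set that carries their symbol alone. Their part in the *Bpgm* value was not tested.

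Probe sets that carry the symbol of a member together with other symbols were left out of the report's values. A probe set shared by *Gapdh* and its pseudogenes had 15041 in CD47 KO cells and 13433 in WT cells, a Log2 ratio of 0.16. A probe set shared by *Hk1* and ribosomal protein genes had 13115 in CD47 KO cells and 11585 in WT cells (0.18), which is far brighter than the probe sets of *Hk1* alone.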
